A study of Mus musculus with 203 samples.

Results

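RAW264.7 cells, a transformed mouse macrophage line, that carried a short hairpin RNA against *Kdm1a* (shKDM1A) were compared at rest with cells that carried a hairpin against GFP (shGFP). The libraries were chosen by their titles: 4 shGFP and 4 shKDM1A RNA-seq libraries from cells that received no IL4, 8 of the 203 samples listed for the series. Both lines were made with a lentiviral hairpin vector and selected with puromycin, so the controls share the vector and the drug with the knockdown cells. The methods name 1 hairpin for *Kdm1a*, and the libraries of a group come from the same selected line, so the p-values below measure the spread between libraries of 2 lines and not between independent knockdowns. A further 4 libraries of each line from cells given 20 ng/ml of IL4 for 6 h were used for the error estimate and as a second set of libraries of the same lines. Of 25094 genes in the deposited table, 12905 reached a value of 1 in 4 or more of the 16 libraries and were tested.

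KDM1A, also called LSD1, is an amine oxidase that removes methyl groups from histone lysines. It is best known as the catalytic subunit of the CoREST corepressor complex, in which it works beside the histone deacetylases HDAC1 and HDAC2 and is brought to DNA by factors such as GFI1B and ZEB2. It has also been described as a coactivator at some promoters and enhancers. In macrophages, genes with low activity at rest include the antiviral genes that type I interferon switches on through STAT2, IRF9 and IRF7.

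Values are on a log2 scale and were moderated by the authors for genes with few reads, so fold changes computed from them understate the change of weakly expressed genes. Totals were between 19390484 and 25135581 tags in the shGFP and between 20841189.5 and 27782568 in the shKDM1A libraries without IL4. On the first principal component of the 16 libraries, which held 54.58% of the variance, the 2 lines stood apart with and without IL4. Of 14 macrophage markers, 12 passed the filter, with mean values in shGFP cells from 5.89 for *Aif1* to 16.90 for *Lyz2*, and *Mertk* and *Cd86* did not pass. None of 7 B cell markers passed the filter. Of 51 markers of other cell types, *Lck* at 5.83 and the erythroid factor *Tal1* at 9.98 were those with a mean over 4, and no globin gene passed the filter. The summed linear values of the macrophage markers were 220237 to 227848 in shGFP and 249506 to 254791 in shKDM1A libraries. Most of this difference was in *Lyz2*, the most abundant of them, and over the 12 markers 5 were higher and 5 lower, with a median log2 fold change of -0.03. *Tal1* was lower by 0.30 in size with shKDM1A. The part of these differences in the results below was not tested.

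*Kdm1a* lies at chr4:136106448-136158638 on the minus strand of mm9. Its values in the 4 shGFP libraries were 11.21, 11.23, 11.13 and 11.17, and in the 4 shKDM1A libraries 10.36, 10.32, 10.23 and 10.29. The groups did not overlap, and the highest shKDM1A library was below the lowest shGFP library. The log2 fold change was -0.88 (SE 0.03, adjusted p = 5.6e-13), which is a decrease of 45.8%. In an exact two-sided permutation test of 4 against 4 libraries p was 0.0286, the smallest that this design can give.

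Other components of the KDM1A complexes changed in both directions, none by more than 0.5. Of 18 members tested out of 19 listed, 5 were higher and 6, *Kdm1a* included, lower with shKDM1A, and the median log2 fold change was -0.002, against -0.003 over all genes tested. At the same threshold, an adjusted p under 0.05, 38.2% of all genes tested were called, 19.7% higher and 18.4% lower. After *Kdm1a* itself the largest decreases were *Ctbp2* at -0.23 and *Zmym2* at -0.16, a corepressor and a zinc finger subunit. *Zeb2* rose by 0.26 and *Gfi1b* by 0.17. *Rcor1*, which encodes the CoREST scaffold, had values of 10.8 in both lines and did not pass the threshold. Among 15 H3K9 methyltransferases and demethylases 4 were higher, the largest *Kdm7a* at 0.31, and 2 were lower, *Phf8* at -0.19 and *Suv39h1* at -0.11, a call lost without shGFP library 4 or shKDM1A library 2 (limma adjusted p 0.0507 and 0.0579). None of the 6 NCoR/SMRT corepressor genes passed the threshold, with log2 fold changes between -0.05 and 0.06.

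In all, 2548 genes were higher and 2379 lower in shKDM1A cells. Most of these changes were small. The median SD between libraries was 0.04 in either group and the median standard error of a fold change was 0.03, so that differences from 0.04 on the log2 scale could pass, and the median size of a called change was 0.15. With a log2 fold change over 0.5 in size, 337 genes, 2.61% of those tested, were changed, 256 higher (1.98%) and 81 lower (0.628%). Over 1, there were 37 higher and 15 lower genes, 0.287% and 0.116%. Changes over 0.5 were thus more often increases. The balance over all called genes depended on the scaling, with 2225 higher and 2929 lower after quantile normalization.

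*Lyz1* had the largest increase of all genes. This gene at chr10:116724851-116729924 encodes the Paneth cell form of lysozyme, and its values were 13.44, 13.38, 13.41 and 13.42 in shGFP and 16.26, 16.22, 16.33 and 16.26 in shKDM1A libraries. The difference of 2.86 (SE 0.03, adjusted p = 1.3e-18) is 7.25-fold and larger than the spread of either group. *Lyz2*, the macrophage lysozyme gene, rose by 0.26 (SE 0.03). Quantile normalization gave 0.0. It gives each rank the same value in every library, so it cannot show whether a gene at the top of the values rose. The 2 genes are close in sequence and lie near each other, so reads may be divided between them uncertainly.

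*Irf7*, at chr7:148449082-148452323, had the next largest increase. It encodes the transcription factor that amplifies type I interferon production. Its values were 9.67, 9.72, 9.71 and 9.73 in shGFP and 11.96, 11.93, 11.90 and 11.96 in shKDM1A libraries. The log2 fold change was 2.23 (SE 0.02, adjusted p = 1.3e-18), or 4.69-fold.

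The other 10 of the 12 largest increases included more interferon genes. Of all 12, *Irf7* included, 4 are members of the interferon list described below, which holds 58 of the 12905 genes tested. *Ifi44l*, *Ifi27l2a*, *Ifi44*, *Oasl2*, *Apol9a* and *H2-T23* are known interferon-induced genes or, for *H2-T23*, a nonclassical MHC class I gene. *Ifi44l* rose from 8.59 ± 0.11 (SD, n = 4) to 10.24 ± 0.08, *Ifi27l2a* from 10.74 ± 0.05 to 12.27 ± 0.04, and *Ifi44* from 10.60 ± 0.02 to 12.08 ± 0.02. *Apol9a* rose by 1.55, *H2-T23* by 1.44 and *Oasl2* by 1.41, with standard errors of 0.04 to 0.05. The remaining 4 encode proteins with other roles. *Pkd1l2*, a polycystin family membrane protein, rose from 7.57 ± 0.12 to 9.66 ± 0.06, *Sdc3*, a heparan sulfate proteoglycan, from 8.55 ± 0.08 to 10.42 ± 0.05, and *Layn*, a hyaluronan receptor, from 7.57 ± 0.10 to 9.27 ± 0.05. *Uchl1*, a deubiquitinase best known from neurons, rose from 6.41 ± 0.07 to 7.90 ± 0.03, and it overlaps the antisense gene *Uchl1os*, which counting without strand cannot separate. *H2-T23* likewise overlaps a gene on the other strand, and *H2-T24*, its neighbour 9417 bases away, rose by 1.40.

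*Sorl1* had the largest decrease. It encodes a sorting receptor of the endosome and lies at chr9:41772792-41932380. Its values were 8.91, 8.87, 8.94 and 8.79 in shGFP and 6.55, 6.59, 6.57 and 6.41 in shKDM1A libraries. The log2 fold change was -2.35 (SE 0.05, adjusted p = 2.2e-15), and the linear value decreased by 80.4%.

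*Tmem176b* and *Tmem176a*, adjacent genes for related ion channel-like membrane proteins of macrophages and dendritic cells, fell together. *Tmem176b* had 10.83, 10.72, 10.76 and 10.79 in shGFP and 8.57, 8.44, 8.48 and 8.51 in shKDM1A libraries, a log2 fold change of -2.28 (SE 0.03). *Tmem176a* fell from 8.16 ± 0.05 to 6.83 ± 0.04, a log2 fold change of -1.34 (SE 0.03). The pair is transcribed in opposite directions from a common interval. RefSeq lists 3 start sites for *Tmem176b* and 2 for *Tmem176a* in GRCm38.p6. The 1 site used here for each gene, not chosen for closeness, lies 346 bases from the other. The sequence before this *Tmem176b* start is shown because both genes that changed share part of it. Capitals mark the 155 bases that also lie within 250 bases before the *Tmem176a* start used.
*Tmem176b*, chr6:48841138-48841387, minus strand: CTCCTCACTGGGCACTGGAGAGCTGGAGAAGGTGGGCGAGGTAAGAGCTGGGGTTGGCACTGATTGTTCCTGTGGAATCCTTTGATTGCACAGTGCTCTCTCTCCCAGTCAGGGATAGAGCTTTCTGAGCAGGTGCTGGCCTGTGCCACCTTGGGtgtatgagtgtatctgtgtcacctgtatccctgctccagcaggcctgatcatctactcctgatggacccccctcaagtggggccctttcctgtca

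The other 9 of the 12 largest decreases, with *Ptgs1* described below, encode proteins of differing roles. *Plcb2*, a phospholipase C activated by G proteins, fell from 9.97 ± 0.07 to 8.41 ± 0.03, and *Car2*, a carbonic anhydrase of osteoclasts, from 12.78 ± 0.07 to 11.26 ± 0.05. *Htr1b*, a serotonin receptor gene that overlaps another gene, fell by 1.37 on the log2 scale, and *Spink5*, a protease inhibitor of epithelia, by 1.40. *Zfp36l1*, which encodes an RNA-binding protein that promotes decay of AU-rich transcripts, fell from 8.66 ± 0.07 to 7.37 ± 0.11. *Rcsd1*, *Cyfip2* and *Plxnc1*, of which the last encodes a semaphorin receptor, fell by 1.25, 1.14 and 1.10. In all of these genes the 4 shKDM1A libraries were below the 4 shGFP libraries, which the rule that chose them required.

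*Ptgs1*, which encodes cyclooxygenase 1, is a gene the study names for this experiment and was also among the 12 largest decreases. At chr2:36085946-36107791, its values were 7.92, 7.88, 7.87 and 7.94 in shGFP and 6.76, 6.71, 6.72 and 6.56 in shKDM1A libraries. The decrease was present before any IL4 was given, with a log2 fold change of -1.21 (SE 0.04, adjusted p = 3.8e-13). *Flt1*, a VEGF receptor gene, fell by 0.54 from 9.33 ± 0.03 to 8.79 ± 0.12. *Mrc1*, the mannose receptor, was at 5.51 ± 0.02 and 5.50 ± 0.03 (log2 fold change -0.02, SE 0.03, adjusted p = 0.74).

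**Figure D1:**
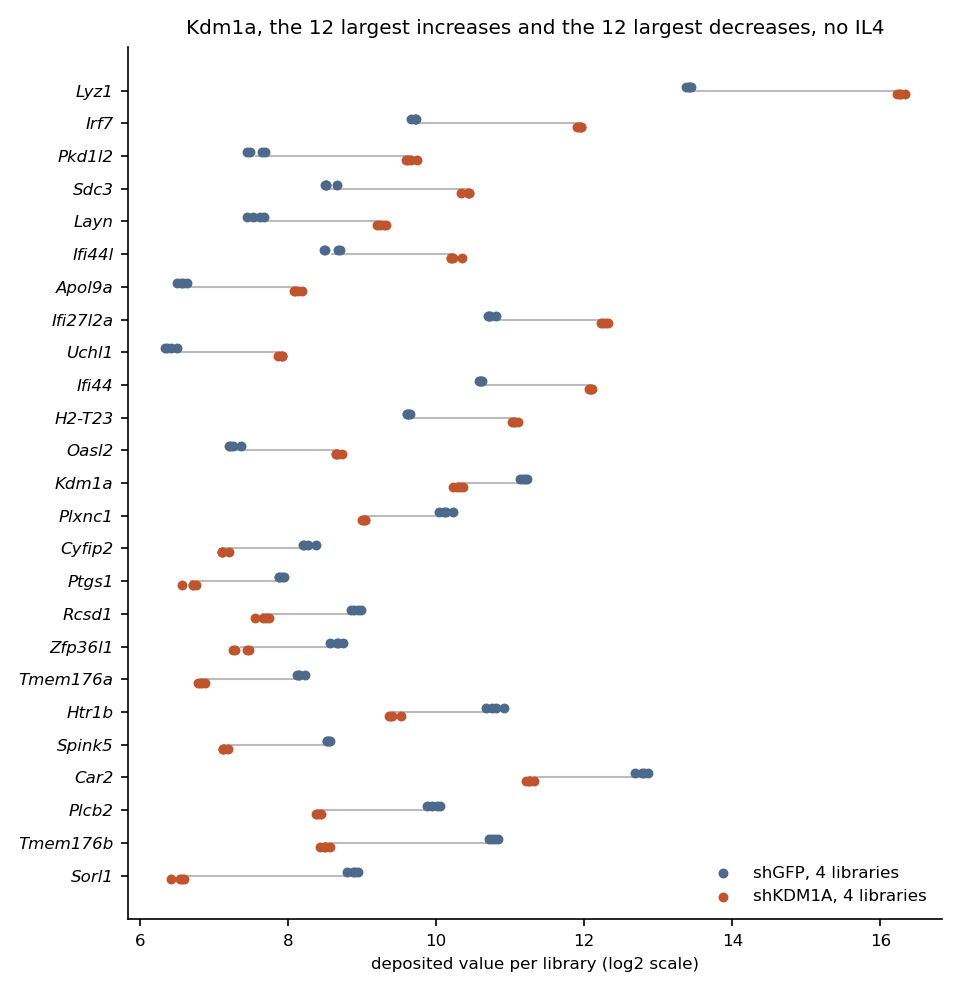
Deposited log2 value per library, without IL4, of *Kdm1a* and of the genes with the 12 largest increases and the 12 largest decreases. Each point is a library, and the grey line joins the means of the 4 shGFP and the 4 shKDM1A libraries, from *Lyz1* (13.41 and 16.27) at the top to *Sorl1* (8.88 and 6.53) at the bottom. The groups overlap in no row, which the rule that chose the increases and decreases required.

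The genes that type I interferon induces rose as a group in cells that received no cytokine. All 58 listed genes passed the filter, 53 were higher, none was lower, and 38 were higher by more than 0.5, where 19.7% of all genes tested were higher and 1.98% by that much. The median log2 fold change was 0.64, against -0.003 over all genes. In 52 of the 58 genes every shKDM1A library was above every shGFP library, and over all genes 37.4% had no overlap in either direction. The list was written with this pattern known from earlier results of these libraries, so its direction is a description that rests on the choice of members. *Ifi27*, a known interferon-induced gene that the list does not hold, fell by 1.01, and was chosen here after its value was seen.

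Within the list, the higher genes included some sensors, signalling factors and effectors. Of the factors that carry the interferon signal, *Stat2* rose by 0.55 and *Irf9* by 0.42, beside *Irf7* at 2.23. The cytoplasmic RNA sensors *Ifih1* (MDA5) and *Ddx58* (RIG-I) rose by 1.04 and 0.94. *Isg15*, a ubiquitin-like modifier, had values of 7.69, 7.49, 7.62 and 7.63 in shGFP and 8.74, 8.74, 8.72 and 8.70 in shKDM1A libraries, and *Usp18*, the protease that removes it from proteins, rose by 1.29. The oligoadenylate synthetase genes *Oas3*, *Oas1g*, *Oas1a* and *Oas2* rose by 1.10, 0.88, 0.87 and 0.74, although reads may be shared between *Oas1a* and *Oas1g*. Members not past the threshold were *Ccl5*, *Phf11a*, *Slfn8*, *Iigp1* and *Ifi205*, with log2 fold changes between -0.0008 and 0.05. *Stat2*, *Irf9*, *Ifih1*, *Ddx58*, *Isg15*, *Usp18* and the *Oas* genes were chosen for their roles after their values were seen.

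The receptor genes did not show such a change, and for the ligand genes a change could not be assessed. Genes for interferon beta, gamma and 3 interferon alphas were below the filter in these libraries. Of the 5 receptor genes tested, *Ifngr2*, *Ifnar1* and *Il10rb* were higher by 0.15, 0.09 and 0.07, and *Ifngr1* and *Ifnar2* were lower, at -0.17 and -0.15. The call of *Il10rb* was lost without shKDM1A library 1 (limma adjusted p 0.0635). With transcripts of the ligand genes below the filter, their secretion was not measured.

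STAT2 and IRF9 bind, in a complex, the interferon-stimulated response element, and its core letters, GAAA, any 2 bases and GAAA again, were searched on both strands in the 250 bases before RefSeq start sites in GRCm38.p6. Of the 58 interferon genes, 42 had a start site in the table, and 20 of these, 47.6%, held the letters, against 3.33% of 10022 matched genes among all genes tested and 3.46% of all genes in the table. Within the list 17 of the 39 matched members past the threshold (43.6%) held them. So did the 3 matched members not past it, *Phf11a*, *Slfn8* and *Ifi205*. With only 3 such members, in a list written with the increase known, this cannot show whether the letters follow the increase. Of 186 matched genes that were higher by more than 0.5, 15.1% held them, and of 64 matched genes lower by more than 0.5, 7.81%. Among genes higher by more than 0.5 that were in neither the interferon nor the MHC class I list, the share was 7.95% of 151. The windows of 4 genes that rose, *Apol9a* and 3 members of the interferon list, are shown as examples with 2 or more overlapping copies, in capitals, on the forward strand in *Isg15*, *Bst2* and *Irgm1* and on the reverse strand in *Apol9a*. *Irf7*, with the largest increase of the list, is shown because its window held none, which says only that these letters are not in those 250 bases.
*Isg15*, chr4:156200819-156201068, minus strand: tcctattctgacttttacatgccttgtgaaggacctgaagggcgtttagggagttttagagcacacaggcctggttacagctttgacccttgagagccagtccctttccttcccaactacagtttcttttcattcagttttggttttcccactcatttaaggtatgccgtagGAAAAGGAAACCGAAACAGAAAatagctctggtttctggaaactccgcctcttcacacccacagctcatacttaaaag
*Bst2*, chr8:71537473-71537722, minus strand: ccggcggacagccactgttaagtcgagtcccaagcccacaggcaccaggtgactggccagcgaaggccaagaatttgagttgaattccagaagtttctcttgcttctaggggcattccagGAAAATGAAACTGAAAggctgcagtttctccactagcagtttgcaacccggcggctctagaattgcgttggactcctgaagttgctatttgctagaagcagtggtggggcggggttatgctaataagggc
*Irgm1*, chr11:48871421-48871670, minus strand: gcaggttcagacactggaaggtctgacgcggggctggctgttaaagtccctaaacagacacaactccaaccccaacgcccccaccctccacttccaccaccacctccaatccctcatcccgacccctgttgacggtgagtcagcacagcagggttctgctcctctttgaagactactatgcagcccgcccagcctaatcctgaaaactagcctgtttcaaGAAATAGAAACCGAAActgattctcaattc
*Apol9a*, chr15:77411081-77411330, minus strand: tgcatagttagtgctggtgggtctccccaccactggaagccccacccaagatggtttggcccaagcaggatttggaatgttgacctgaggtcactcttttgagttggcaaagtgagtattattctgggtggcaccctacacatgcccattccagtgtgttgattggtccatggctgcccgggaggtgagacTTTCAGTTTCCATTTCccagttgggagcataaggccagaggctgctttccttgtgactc
*Irf7*, chr7:141266425-141266674, minus strand: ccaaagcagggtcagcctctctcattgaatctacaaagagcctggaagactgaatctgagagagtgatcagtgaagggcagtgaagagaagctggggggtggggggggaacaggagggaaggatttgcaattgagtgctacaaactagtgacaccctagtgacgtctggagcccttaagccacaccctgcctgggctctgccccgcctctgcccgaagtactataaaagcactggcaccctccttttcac

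The tetherin gene *Bst2* rose by 0.92 and the GTPase gene *Irgm1* by 0.83, both chosen here for their sequence. Genes of MHC class I presentation rose beside the interferon genes. Of 23 tested, 19 were higher and 1 lower, with a median log2 fold change of 0.31. These shares were 82.6% and 4.35%, against 19.7% and 18.4% of all genes tested. *H2-K1* rose from 11.68 ± 0.07 to 12.32 ± 0.08 and *Tapbp*, the tapasin gene, from 12.17 ± 0.04 to 12.81 ± 0.03, while *H2-M3* fell by 0.33. Class I heavy chain genes are similar in sequence, and reads may be divided between them uncertainly. Of 7 MHC class II presentation genes tested, *Ctss*, the cathepsin that trims the invariant chain, rose by 0.53, *H2-DMa* by 0.26 and *Ifi30* by 0.14, and *H2-Ab1*, at 1.83 in shGFP cells, was lower, at -0.05, a call lost without any 1 of 4 libraries, shGFP 1 or 2 or shKDM1A 2 or 4 (limma adjusted p 0.052 to 0.0672).

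**Figure D2:**
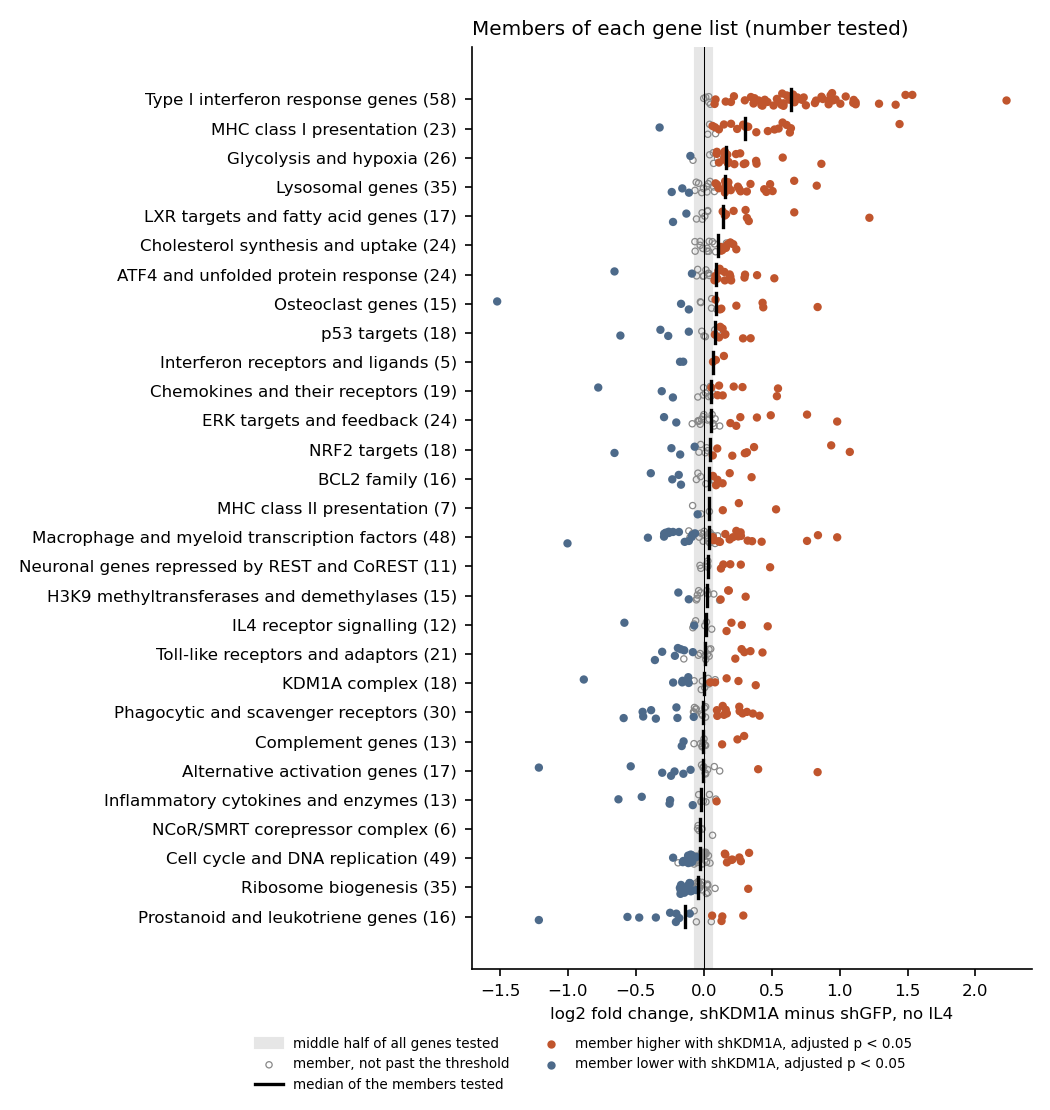
Log2 fold change, shKDM1A minus shGFP without IL4, of each tested member of 29 gene lists, ordered by the median of the members (black bar). Filled points passed an adjusted p of 0.05, red higher and blue lower, and the grey band spans the quartiles of all genes tested, from -0.06 to 0.06, which the medians of the interferon (0.64) and MHC class I (0.31) lists exceed most.

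Genes of the lysosome, of lipid handling and of glycolysis were more often higher than lower, with medians above that of all genes. Of the lysosomal, LXR and fatty acid, cholesterol and glycolysis lists 60.0%, 52.9%, 45.8% and 76.9% were higher, against 19.7% of all genes tested. In the same order 8.57%, 11.8%, 0.0% and 3.85% were lower, against 18.4%. Of 35 lysosomal genes 21 were higher and 3 lower (median 0.16), led by the protease gene *Ctsl* at 0.83, the cholesterol-binding *Npc2* at 0.67 and the proton pump subunit *Atp6v1b2* at 0.51. *Ctsc*, *Gaa* and *Man2b1* were lower, by 0.24, 0.16 and 0.11 in size. Of 17 LXR targets and fatty acid genes 9 were higher and 2 lower. *Pltp*, a phospholipid transfer protein, rose from 10.88 ± 0.03 to 12.10 ± 0.04, though it overlaps *Ctsa* on the other strand, *Lpl*, lipoprotein lipase, rose by 0.67 and *Scd1*, a fatty acid desaturase, by 0.33. The receptor gene *Nr1h3* (LXR alpha) and *Apoe* were lower, at -0.23 and -0.13, the latter a call lost without shGFP library 1 or shKDM1A library 4 (limma adjusted p 0.0956 and 0.102).

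Of 24 cholesterol synthesis and uptake genes 11 were higher and none lower, with log2 fold changes up to 0.24 in *Tm7sf2*, 0.22 in *Sc5d* and 0.20 in *Pmvk*. Of 26 glycolysis and hypoxia genes 20 were higher and 1 lower, *Egln3* at -0.10. The hypoxia-induced mitophagy receptor *Bnip3* rose from 9.30 ± 0.02 to 10.16 ± 0.09, the lactate exporter *Slc16a3* by 0.58 and pyruvate kinase, *Pkm*, by 0.39. *Hif1a* itself did not pass the threshold, with a log2 fold change of -0.08.

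Iron and haem genes of the NRF2 list changed in both directions. *Fth1*, the ferritin heavy chain, had values of 15.78, 15.75, 15.71 and 15.81 in shGFP and 16.87, 16.83, 16.83 and 16.82 in shKDM1A libraries, and *Hmox1*, haem oxygenase 1, rose by 0.94 from 11.34 ± 0.03. *Ftl1*, the ferritin light chain, was lower, at -0.17, as was the factor gene *Nfe2l2* at -0.24. *Slc7a11*, the cystine importer, fell by 0.66 and *Me1*, malic enzyme, rose by 0.37. In the list of 18, 9 were higher and 4 lower, with a median of 0.05. These shares were 50.0% and 22.2%, against 19.7% and 18.4% of all genes tested. Ferritin genes have processed pseudogenes, so their counts are uncertain where reads match several copies. Of 24 ATF4 and unfolded protein response genes 14 were higher (58.3%), among them *Chac1* at 0.52, *Asns* at 0.39 and *Trib3* at 0.30. Another 2 were lower (8.33%), *Slc7a11* and *Xbp1*. The call of *Xbp1* was lost without any 1 of 4 libraries, shGFP 1 or shKDM1A 2, 3 or 4 (limma adjusted p 0.0542 to 0.0635).

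Transcription factor genes of myeloid cells changed in both directions, 17 higher and 14 lower of 48. These shares were 35.4% and 29.2%, against 19.7% and 18.4% of all genes tested. The AP-1 genes *Fosl1*, *Fosl2* and *Fos* had the 3 largest increases, 0.98, 0.84 and 0.76, with *Fosl1* at 7.88 ± 0.04 and 8.86 ± 0.05. *Fosl1* overlaps a gene on the other strand. *Id3*, an inhibitor of helix-loop-helix factors, fell by 1.00, *Tfec* by 0.41 and *Egr1* by 0.29. Of 24 ERK targets and feedback genes 7 were higher (29.2%), *Fosl1*, *Fos* and *Emp1* (0.49) first. *Egr1* and *Dusp6* (-0.20) were lower, a share of 8.33%, below that of all genes tested. *Spi1*, the gene of the myeloid factor PU.1 and one of the macrophage markers, was higher by 0.11.

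Prostanoid and leukotriene genes had the lowest median of the lists, -0.14, with 9 lower and 4 higher of 16. These shares were 56.2% and 25.0%, against 18.4% and 19.7% of all genes tested. After *Ptgs1* the largest decreases were *Hpgds*, the haematopoietic prostaglandin D synthase, from 10.93 ± 0.03 to 10.37 ± 0.04, and *Alox5*, the lipoxygenase of leukotriene synthesis, from 10.44 ± 0.06 to 9.97 ± 0.08. *Ptgs2*, the inducible cyclooxygenase, was lower, at -0.25. *Alox5ap*, which encodes the activating protein of that lipoxygenase, was higher by 0.29, *Ptgir* by 0.14 and *Tbxas1* by 0.13. The groups overlapped in *Ptgir*, and its call was lost without any 1 of 3 libraries, shGFP 1 or 3 or shKDM1A 3 (limma adjusted p 0.0566 to 0.0706). Among 17 alternative activation genes tested, 7 were lower (41.2%), *Ptgs1*, *Flt1* and *Pparg* (-0.31) most, and 2 were higher (11.8%), *Atp6v0d2* at 0.84 and *Klf4* at 0.40. Another 10 genes of that list, among them *Retnla*, *Chil3* and *Ccl17*, were below the filter.

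Of the IL4 receptor genes, *Il13ra1*, a subunit of the type II receptor, fell from 9.50 ± 0.05 to 8.91 ± 0.08, and *Il2rg*, the common gamma chain, rose from 9.63 ± 0.04 to 10.10 ± 0.02. *Il4ra* and *Stat6* had log2 fold changes of -0.08 and 0.02 and did not pass the threshold. In the list of 12, 4 were higher, with *Jak3* at 0.28 and *Tyk2* at 0.20, and 2 lower, *Il13ra1* and *Ptpn6* (-0.07). These shares were 33.3% and 16.7%, the latter near the share of all genes tested, where 19.7% were higher and 18.4% lower.

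Inflammatory cytokines and chemokines changed in both directions. Of 13 cytokine and enzyme genes tested 5 were lower, *Ltb*, *Il1rn* and *Tnf* most (-0.63, -0.46 and -0.25), and *Il15* was higher by 0.09, a call lost without any 1 of 7 libraries, all but shKDM1A 2 (limma adjusted p 0.0501 to 0.0839). Of the cytokine and enzyme genes 7.69% were higher and 38.5% lower, against 19.7% and 18.4% of all genes tested. Of 19 chemokine and receptor genes 8 were higher (42.1%) and 3 lower (15.8%). *Ccl9*, *Cxcl10* and *Ccl3* rose by 0.55, 0.54 and 0.28, and *Cxcl14*, *Ccl2* and *Cxcl16* fell by 0.78, 0.31 and 0.23. Of 21 Toll-like receptor and adaptor genes 5 were higher (23.8%, against 19.7% of all genes tested) and 7 lower (33.3%, against 18.4%), with *Tlr3*, which interferon induces, at 0.43, *Tirap* at 0.34 and *Tlr13* at 0.30 against *Tlr7*, *Tlr2* and *Myd88* at -0.36, -0.31 and -0.21.

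Surface receptors of phagocytosis changed in both directions too, 12 higher and 8 lower of 30. These shares were 40.0% and 26.7%, against 19.7% and 18.4% of all genes tested. The integrin genes *Itgam* and *Itgb2*, whose products form complement receptor 3, rose by 0.41 and 0.36 and the scavenger receptor gene *Cd36* by 0.32, while *Cd300lf*, the Fc receptor gene *Fcgr1* and the lectin gene *Clec4e* fell by 0.59, 0.45 and 0.45. *Fcgr1* is a macrophage marker, and of the 12 markers tested 5 were higher and 5 lower. Of 15 osteoclast genes 7 were higher (46.7%), *Atp6v0d2*, *Ctsk* (0.44) and *Nfatc1* (0.43) most. Another 3 were lower (20.0%, near the share of all genes), *Car2*, *Ocstamp* (-0.17) and *Ostm1* (-0.11). Of 13 complement genes 3 were higher, *C3ar1* at 0.30 first, then *Cfb* at 0.25 and *Cd59a* at 0.13, and 2 lower, *C5ar2* at -0.16 and *C3* at -0.15, shares of 23.1% and 15.4% that are near the 19.7% and 18.4% of all genes tested.

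Growth genes changed by small amounts. Of all genes tested, 19.7% were higher and 18.4% lower. Of 49 cell cycle and DNA replication genes 15 were lower (30.6%) and 8 higher (16.3%), none by more than 0.5. *Birc5*, *Rfc5* and *Ccna2* were at -0.23, -0.15 and -0.15 and *Cdk6*, *Ccnb2* and *Ccne1* at 0.33, 0.27 and 0.26. Of 35 ribosome biogenesis genes 14 were lower (40.0%), with *Wdr12*, *Npm1* and *Ncl* at -0.18, -0.17 and -0.17, and only *Imp3* was higher (2.86%), at 0.33. Among 18 p53 targets 8 were higher (44.4%) and 4 lower (22.2%). *Cdkn1a*, the cyclin kinase inhibitor p21, rose by 0.34, *Mdm2* by 0.29 and *Ei24* by 0.16, while *Sesn1*, *Phlda3* and *Zmat3* fell by 0.61, 0.32 and 0.26. In the BCL2 family 6 of 16 tested were higher (37.5%), with *Bcl2l11* (BIM) at 0.35, *Bcl2l2* at 0.19 and *Bbc3* at 0.14. Another 4 were lower (25.0%), with *Bcl2a1d* at -0.39, *Bcl2* at -0.23 and *Bmf* at -0.18. The call of *Bbc3* was lost without any 1 of 6 libraries, all but shGFP 2 and shKDM1A 1 (limma adjusted p 0.0535 to 0.119).

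Neuronal genes that REST and CoREST are known to silence in other cells were mostly below the filter. Of 33 listed genes 22 were below the filter. Of the 11 tested 5 were higher, 45.5% against 19.7% of all genes tested, none lower and none by more than 0.5. *L1cam* was at 8.44 ± 0.09 and 8.93 ± 0.08. *Syn1*, which overlaps 2 genes on the other strand, rose by 0.27 and *Syp* by 0.20.

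The changed genes were not evenly placed in the genome. On chromosome 9, 44.4% of the 698 genes tested were higher with shKDM1A, while the share on each of the other chromosomes was between 13.6% and 23.3%. The higher genes were concentrated in 1 stretch, between 30 and 80 Mb of mm9, whose limits were set after the values were seen. Of 308 genes there, 237 were higher and 10 lower, 76.9% and 3.25%, and 89.3% had a log2 fold change above 0. Outside it, 18.3% of the genes tested were higher and 18.8% lower. On the same chromosome 20.4% were higher before and 18.1% after the stretch.

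The shift was small and varied from gene to gene. The median log2 fold change in the stretch was 0.24, with quartiles of 0.10 and 0.34, against a median of -0.005 and quartiles of -0.06 and 0.06 over all genes outside. For the 211 genes of the stretch with a mean value of at least 8, on which the moderation weighs least, 91.5% were higher and the median was 0.30, or 1.23-fold. Its median was alike in every library. Relative to the mean of the shGFP libraries, the median over the stretch was 0.245, 0.243, 0.247 and 0.244 in the 4 shKDM1A libraries and between -0.002 and 0.005 in the 4 shGFP libraries. In 5 Mb windows with at least 10 genes, the 10 windows of the stretch had medians of 0.17 to 0.33, and the 363 other windows of the genome lay between -0.11 and 0.11. At its ends, among genes with a mean of at least 8, were *Snx19* at 0.33 and *Senp6* at 0.26.

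Individual genes of the stretch departed from this level. *Sorl1* fell within it and *Layn* rose beyond it, and *Mapk6*, an atypical MAP kinase gene, rose from 12.08 ± 0.06 to 13.04 ± 0.02, *Cd109* fell by 0.73 and *St14* by 0.44, all 3 chosen after their values were seen. Some members of the lists lie in the stretch and were higher: *Pkm* (0.39), *Imp3* (0.33), *Tirap* (0.34), *Ccnb2* (0.27), *Sc5d* (0.22) and *Ei24* (0.16) are among them. No member of the interferon or MHC class I lists does. The stretch holds 2.39% of those tested and 9.3% of those called higher. DNA content was not measured in these libraries, and what the stretch shares beyond its position was not tested.

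**Figure D3:**
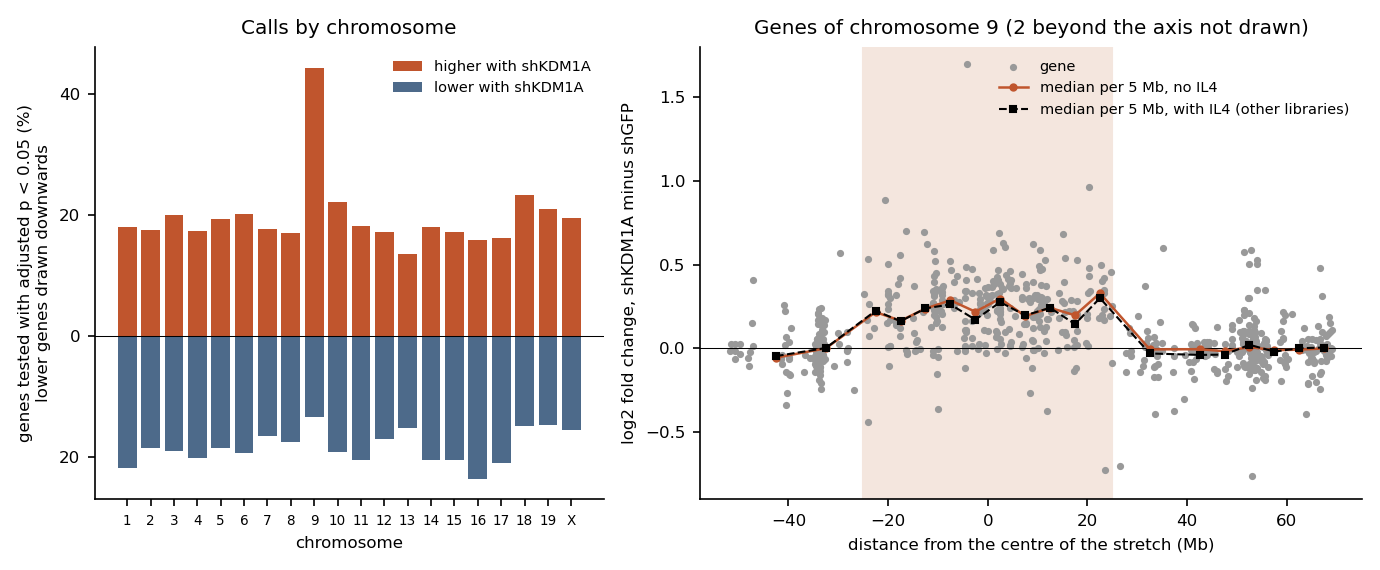
Left, share of the genes tested on each chromosome with an adjusted p under 0.05 in shKDM1A against shGFP cells without IL4, higher genes upwards and lower genes downwards, with chromosome 9 at 44.4% higher. Right, log2 fold change of each gene of chromosome 9 by distance from the centre of the stretch (shaded), with medians per 5 Mb from the libraries without IL4 and, dashed, from the other libraries with IL4, both between 0.15 and 0.33 within the shading and near 0 outside it.

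Chromosome 18 had the highest share of changes over 0.5, 8.14% of 344 genes. This share rests on the protocadherin gamma cluster, whose 25 table entries end at or near the same last exons. *Pcdhgb8*, the entry that ends apart from the others, had a mean of 8.49 in shGFP cells. All 25 were called higher, with log2 fold changes of 0.51 to 0.68, and 19 of them had mean values within 0.01 of 10.02 in shGFP cells. The entries share exons, so the same reads are counted in many of them. Without them 231 genes were higher by more than 0.5. Neighbours also occurred among the 52 genes with a change over 1, and those outside the rule for named genes were chosen after their values were seen. Besides the *Tmem176* and *H2-T* pairs, *Ifi44* and *Ifi44l* are 8827 bases apart, *Uvrag* and *Dgat2*, up by 1.33 and 1.25, are 12519 apart, and *Ifi27* and *Ifi27l2a*, 1921 bases apart, moved in opposite directions, by -1.01 and 1.54.

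Calls were more frequent at high levels. With the genes in 5 equal bins by mean value, in the lowest bin, up to 5.64, 16.6% were called, and in the highest bin, from 10.91, 54.4%. Changes over 0.5 were 0.155% of the lowest bin and between 2.63% and 4.18% of the others. By length of the exons, 29.6% of the shortest of 5 bins, up to 1483 bases, and between 38.8% and 42.1% of the other bins were called. Calls were 40.1% of the protein-coding and 15.8% of the noncoding RNA genes.

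The libraries with IL4 share no sample with those above and come from the same 2 lines. Of the 4927 genes called without IL4, 4455, or 90.4%, had the same sign with IL4, and 3238, or 65.7%, were also called there with that sign. Of the 7978 genes not called without IL4, 63.3% had the same sign, and 18.6% had it and were called with IL4. With IL4, 40.7% of all genes tested were called. Of the 337 genes changed by more than 0.5, 335 had the same sign and were called, and of the 52 changed by more than 1 all were. *Irf7* rose by 2.30 with IL4, *Lyz1* by 3.23 and *Sdc3* by 1.75, and the interferon list had 54 genes higher, none lower and a median of 0.72. In the stretch of chromosome 9 the median with IL4 was 0.23, and 220 of its 308 genes were higher.

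The effect of the hairpin differed between the 2 conditions for 791 genes, 6.13% of those tested, by the test of the difference itself. *Ptgs1* fell more with IL4 (-1.91 against -1.21, adjusted p = 1.2e-06 for the difference), and *Mrc1* differed from -0.02 to -0.83 (adjusted p = 3.6e-08). *Id3*, *Ltb*, *Fosl2* and *Atp6v0d2* had smaller effects with IL4, -0.31, -0.26, 0.29 and 0.46. For *Flt1* the effects were the same to 2 decimals. The amino acid response genes *Asns* and *Trib3* changed sign, from 0.39 to -0.22 and from 0.30 to -0.27, with adjusted p-values of 3.6e-08 and 7.5e-05. Of all genes, 66 were called in both conditions with opposite signs and a difference that passed the test.

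**Figure D4:**
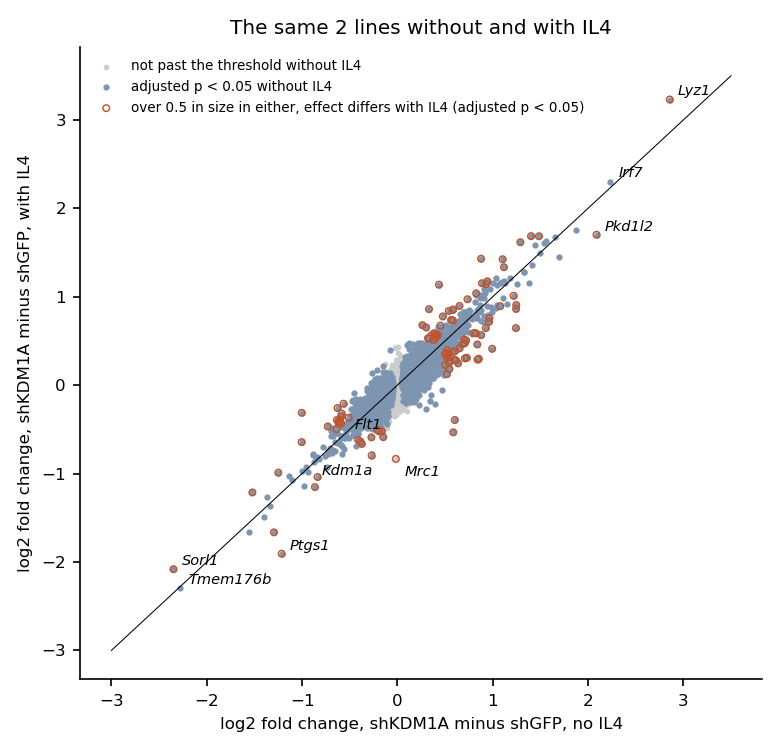
Log2 fold change, shKDM1A minus shGFP, of each gene without IL4 (horizontal) and with IL4 (vertical), with the line of equal values. Most called genes (blue) lie along the line, *Lyz1* at 2.86 and 3.23 and *Sorl1* at -2.35 and -2.08 at its ends, and *Mrc1* at -0.02 and -0.83 and *Ptgs1* at -1.21 and -1.91 lie off it.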

How the data were processed

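RNA-seq libraries were prepared with a kit that does not keep strand. The authors aligned reads to mm9, counted tags on the exons of RefSeq genes with HOMER without regard to strand, and deposited values per library on a log2 scale, moderated for low expression, beside fold changes and p-values of their own comparisons from DESeq2, which were not used. The name of the transformation is not given in the sources used here. A second deposited table, of bone marrow-derived macrophages, holds only such comparisons and was not used. Decimals in the deposited table are written with commas.

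Values were tested as deposited in limma 3.58.1 under R 4.3.3, with lmFit and then eBayes on 1 mean per group for 4 groups of 4 libraries, with no pseudocount and with Benjamini-Hochberg adjustment over the 12905 genes that reached a value of 1 in 4 or more libraries. Genes were called at an adjusted p under 0.05, and all adjusted p-values in the text are from limma. Another 8488 genes had a single value in all libraries. On simulated data for this comparison, with 200 of 12905 genes changed, the fit recovered 200 with 7 false calls. Depth was 17554721 to 27782568 tags per library, and the precision of low values cannot be read from moderated values. No 2 libraries were identical, and libraries of 1 group differed by a median of 0.04 to 0.06 over genes.

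The comparison and the gene lists were chosen with earlier results of these data known. Named are *Kdm1a*, genes the study names, the 12 largest increases and decreases with a mean of at least 5 in the higher group and no overlap of libraries, and in each list the 3 largest called changes in each direction with genes that define the list. Some items that the rule names are not reported here. Genes outside this rule are marked as chosen after their values were seen. List genes were matched by symbol or unique alias. Sequences are from RefSeq (GRCm38.p6), and gene positions from the deposited table (mm9). Alternatives were the filter, the libraries in the fit, a replicate block, leaving out each library, a trended prior variance, median centring, quantile normalization, limits on the fold change and, chosen after seeing the data, leaving out the stretch of chromosome 9 or the protocadherin gamma entries.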

Additional observations from a re-analysis of the deposited data

Results flagged for a closer look

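For 53 of the 190 genes named above the effect of shKDM1A differed with IL4 by limma's test of the difference (adjusted p under 0.05), where 6.13% of all genes tested differed. Values are the log2 fold change with IL4 minus that without. The effect was lower with IL4 for *Mrc1* -0.82, *Ptgs1* -0.69, *Asns* -0.61, *Trib3* -0.58, *Fosl2* -0.55, *Bcl2l11* -0.47, *C3* -0.44, *Chac1* -0.39, *Pkd1l2* -0.39, *Atp6v0d2* -0.38 and *Zfp36l1* -0.37. The effect was lower with IL4 for *Dgat2* -0.34, *Cd36* -0.33, *Ptgir* -0.25, *C3ar1* -0.25, *Tlr13* -0.22, *Pltp* -0.21, *Mapk6* -0.21, *Nfatc1* -0.18, *Itgam* -0.16 and *Emp1* -0.11. It was higher with IL4 for *Pkm* 0.13, *Ifngr2* 0.13, *Irf9* 0.14, *Xbp1* 0.14, *Tlr2* 0.15, *Egr1* 0.16, *Sesn1* 0.18, *Ptgs2* 0.19, *Myd88* 0.20 and *Ifi44* 0.20. It was higher with IL4 for *Il1rn* 0.20, *Cxcl16* 0.21, *Irgm1* 0.21, *Ddx58* 0.23, *Oas2* 0.24, *Clec4e* 0.24, *Rcsd1* 0.26, *Il13ra1* 0.26, *Sorl1* 0.27, *Slc16a3* 0.27 and *Fcgr1* 0.27. It was higher with IL4 for *H2-T24* 0.28, *Ctsc* 0.30, *Cxcl10* 0.30, *Car2* 0.31, *Usp18* 0.33, *Ifi27* 0.36, *Ltb* 0.37, *Lyz1* 0.37, *Lyz2* 0.42, *Scd1* 0.53 and *Id3* 0.69.

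In 24 of 380 groups of 4 libraries, each 1 gene in 1 line without IL4, a single library stood apart from the other 3 by Dixon's criterion, which chance meets in about 1 in 20 groups. The library apart was the lowest of the shGFP libraries, with this log2 value, for *Il15* 4.53, *Pcdhgb8* 8.41, *Senp6* 10.68, *Npc2* 12.21 and *Ctss* 13.51. The library apart was the highest of the shGFP libraries, with this log2 value, for *Sdc3* 8.66, *Oas1g* 9.25, *Imp3* 10.79, *Rcor1* 10.86, *Stat6* 12.08 and *Ifi30* 13.03. The library apart was the lowest of the shKDM1A libraries, with this log2 value, for *Uchl1* 7.86, *Alox5* 9.85, *Zmat3* 9.94, *Sdc3* 10.34, *Man2b1* 11.13, *Cd36* 12.11 and *Npc2* 12.92. The library apart was the highest of the shKDM1A libraries, with this log2 value, for *Spink5* 7.19, *Cyfip2* 7.20, *Ddx58* 10.90, *Alox5ap* 11.90, *Xbp1* 12.52 and *Slc16a3* 12.73.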

How the results depend on the processing

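The number of genes changed by shKDM1A was between 4419 and 5154 under every filter, scaling, prior variance, choice of libraries and left-out library that was run, against 4927, and *Kdm1a* stayed lower and past the threshold in each. With a log2 fold change over 0.5 it was 337 and over 1 it was 52. Over the lists, 379 members were past the threshold, 73 of them with a change over 0.5 and 17 over 1. Genes whose effect differed with IL4 numbered 791, of which 17 differed by over 0.5 and 1 by over 1, and leaving out 1 library gave 534 to 811. Under quantile normalization 43.2% of called genes were higher, against 51.7%. Over the list members it gave 232 higher and 150 lower, against 261 and 118. Of 2841 values of single genes, 2780 kept direction and call, 45 lost and 7 gained the call and 9 changed sign, and the cause was not tested. Quantile normalization gave 0.0 for *Lyz2*, -0.0133 for *Rcor1* and -0.008 for *Stat6*. Leaving out 1 library gave -0.0048 to 0.0026 for *Ifi205*, -0.0046 to 0.023 for *Rcor1* and -0.0089 to 0.0603 for *Slfn8*. Of these genes only *Lyz2* had been called. Calls lost when 1 library was left out were those of *Aif1*, *Apoe*, *Bbc3*, *H2-Ab1*, *Il10rb*, *Il15*, *Lck*, *Ptgir*, *Suv39h1* and *Xbp1*, 10 genes with limma's adjusted p at 0.0501 to 0.119 without the library, and each of the 8 libraries ended at least 1 of these calls.

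With the replicate number as a block 4882 genes were called, and 732 differed with IL4. Same-numbered libraries of the 2 groups without IL4 correlated at -0.092 to 0.0879, under the 0.1 required to treat them as pairs, although 3 of 4 shGFP libraries correlated best with the shKDM1A library of their own number. Without the stretch of chromosome 9 there were 4680 called genes, 2311 higher, and without the protocadherin gamma entries 4902, both chosen after seeing the data. A count model was not run, since the values are on a log2 scale. Low values are moderated, which limits what can be read from weakly expressed genes.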
